A study of Mus musculus with 6 samples.

Results

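The genes of 7 transcription factors of fat cell differentiation were followed in cultured mouse brown adipocytes: the CCAAT/enhancer-binding protein (C/EBP) genes Cebpa, Cebpb, Cebpd and Cebpg, the early B-cell factor gene Ebf1, and the signal transducer genes Stat5a and Stat5b. All probe sets that the platform annotation assigns to only 1 of these 7 genes were taken, which gave 7 of 18193 named genes and 17 of the 45037 probe sets on the array, with 1 for Cebpa, 2 each for Cebpb, Cebpd, Stat5a and Stat5b, 3 for Cebpg and 5 for Ebf1. The cells were brown preadipocytes immortalised with SV40 large T antigen and differentiated for 7 days. They fell into 3 groups of 2 arrays each, which the series design calls biological replicates: PGC-1alpha -/- cells expressing an siRNA against PGC-1beta (knockdown), PGC-1alpha -/- cells expressing a control siRNA (knockout-control), and wild-type cells. PGC-1alpha and PGC-1beta are transcriptional coactivators that raise mitochondrial genes, and the study compared loss of the first alone with loss of both. All groups share the SV40 large T antigen. The wild-type titles name no siRNA. Passage 4 is stated for both wild-type arrays and a mouse of mixed background for 1 of them, and neither is stated for the knockout cells. The labels do not say how many clones or animals each line came from.

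In fat cell differentiation C/EBPβ and C/EBPδ are induced early, the first by cAMP and the second by glucocorticoid hormone in the usual culture cocktail, and they switch on C/EBPα and the nuclear receptor PPARγ, which then maintain each other. C/EBPγ lacks a transactivation domain and pairs with the other C/EBP proteins. EBF1 acts upstream of C/EBPα and PPARγ, and STAT5A and STAT5B carry the growth hormone and prolactin signal from JAK2 to the nucleus and promote adipogenesis.

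Values are intensities of a probe set on a linear scale, as deposited. Each was transformed to log2(intensity + 32), and fold changes are on that scale, which understates the change of dim probe sets. All probe sets with 1 gene symbol and a mean above the 40th percentile of the array (an intensity of 163.6) were fitted together in limma, and a probe set was called at a Benjamini-Hochberg adjusted p under 0.05. Of the 17 probe sets, 15 were above that filter, and they covered all 7 genes. The other 2, 1425261_at of Cebpg and 1457441_at of Ebf1, were too dim to be tested. Levels of different probe sets depend on their probes and were not compared with each other.

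The cells carried the RNA of differentiated fat. The summed intensity of 4 adipocyte markers with a probe set (Adipoq, Fabp4, Pparg and Cidec) was 32716 and 29681 in knockdown, 35171 and 33942 in knockout-control and 33341 and 33469 in wild type. Fabp4, the largest part of each sum, was at the array maximum on knockdown array 1 and on all knockout-control and wild-type arrays. The sum may therefore understate differences, and saturation was not tested. Summed brown adipocyte markers (6 of 6, among them Ucp1) stood at 8739 and 6771 in knockdown, 19175 and 18820 in knockout-control and 20570 and 20359 in wild type. In knockdown against wild type 5 of these 6 fell, Ucp1 by 29.1-fold, and 1 rose, Elovl3, by 8.01-fold (limma adjusted p = 2.6e-05 and 0.000183). On brightest probe sets, 5.6% of all genes were called lower there and 3.74% higher. Elovl3 also rose 7.12-fold in knockout-control against wild type (limma adjusted p = 0.000283), where Ucp1 did not pass (-0.22). Between knockdown and knockout-control 4 of the 6 fell, Ucp1 by 24.9-fold (limma adjusted p = 3.9e-05), where 0.44% of all genes were called lower. Elovl3 did not pass there (0.17). In bulk RNA, fewer cells of a type and less RNA per cell cannot be told apart. Ppargc1b, the siRNA's target, was at 533.8 and 223.8 in knockdown, 1862 and 2302 in knockout-control and 2850 and 3162 in wild type. The 5 probe sets of Ppargc1a ranged from 268.4 to 1146 in knockdown, from 281.8 to 830.4 in knockout-control and from 516.9 to 1338 in wild type. Y-linked Eif2s3y was at 5.13 on the 1 knockdown array with a value, at 6.25 on the 1 such knockout-control array and at 872.4 and 960.5 in wild type. Genotype, siRNA vector, cell line and sex cannot be told apart in any comparison with wild type. Knockdown array 2 was dimmer above the median than the others (upper quartile 502.8, against 547 to 599.6), and knockdown array 1 correlated more with knockout-control array 2 (r = 0.966 across probe sets, which are not independent) than with its own replicate (r = 0.961).

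Against wild type, Cebpd rose in both kinds of knockout cell, 5.68-fold and 3.92-fold on its brighter probe set and 1.92-fold and 1.57-fold on the dimmer one in knockout-control and knockdown, and the calls of the dimmer one were lost with single arrays left out. That dimmer probe set passed the filter only through its knockout values. Stat5b rose on 1 of its 2 probe sets in knockdown against wild type, a call that was also lost with single arrays left out. No probe set of Cebpa, Cebpb, Cebpg, Ebf1 or Stat5a was called in any of the 3 comparisons. Between knockout-control and wild type, 2 of 15 probe sets were called higher, 0 lower and 13 did not pass, where 6.32% of all 22723 tested probe sets were called, 2.52% higher and 3.8% lower. Between knockdown and knockout-control 0 of 15 were called in limma, where 0.625% of all probe sets were called, 0.216% higher and 0.409% lower. There 3 of the 15 had an unadjusted limma p under 0.05, as did 2961 of all 22719 tested probe sets. Between knockdown and wild type 3 of 15 were called higher and 0 lower, where 9.93% of all were called, 3.88% higher and 6.05% lower. The median log2 fold change of the 15 was 0.19 in knockout-control against wild type, where that of all tested probe sets was -0.01. It was -0.12 in knockdown against knockout-control (all, -0.00) and 0.15 in knockdown against wild type (all, -0.03). The 3 comparisons share groups and are not independent of each other.

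**Figure D1:**
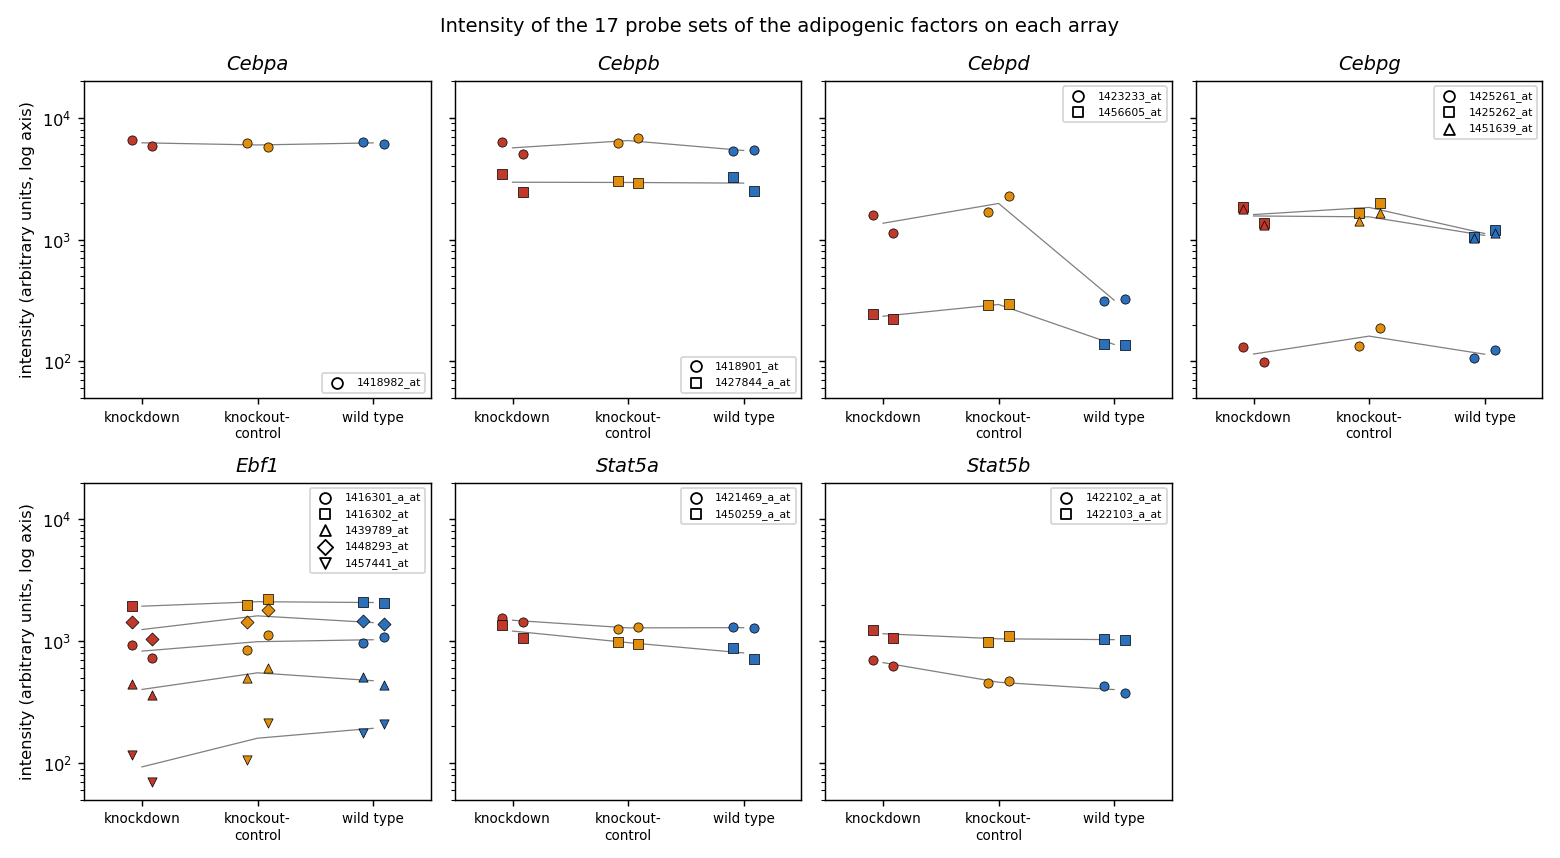
Intensity (log axis) of each of the 17 probe sets on the 6 arrays, by group; each point is an array, symbols mark probe sets and grey lines join group means. Both probe sets of Cebpd lie higher on all 4 knockout arrays than in wild type, while Cebpa stays between 5765 and 6600 on all 6 arrays.

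Cebpd (chromosome 16, bases 15887286 to 15889545 of GRCm38) encodes C/EBPδ, an early factor of adipogenesis that glucocorticoids and inflammatory signals induce. Its probe set 1423233_at had 1589 and 1132 in knockdown, 1673 and 2282 in knockout-control and 313.8 and 322.3 in wild type. All 4 knockout arrays were above both wild-type arrays, and both knockdown arrays were below both knockout-control arrays. It rose 5.68-fold in knockout-control against wild type (a log2 difference of 2.50 with an SE of 0.21, limma adjusted p = 0.000421) and 3.92-fold in knockdown against wild type (1.97 ± 0.21, limma adjusted p = 0.00112). By log2 fold change it ranked 25 of the 22723 probe sets tested between knockout-control and wild type. With any 1 array left out the knockout-control call stayed, at a log2 fold change of 2.28 to 2.73 (highest limma adjusted p = 0.00459).

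The second Cebpd probe set, 1456605_at, is dimmer and moved the same way. It had 246.7 and 222.7 in knockdown, 290.8 and 295.1 in knockout-control and 139.7 and 135.7 in wild type. With wild-type values under the filter's 163.6, the probe set was tested only through its higher knockout values. Its calls therefore give no separate support. It rose 1.92-fold in knockout-control (0.94 ± 0.15, limma adjusted p = 0.00775) and 1.57-fold in knockdown (0.65 ± 0.15, limma adjusted p = 0.0265), each against wild type. Its knockout-control call was lost without knockout-control array 1 or 2 (limma adjusted p = 0.0675 and 0.056) and without wild-type array 1 or 2 (0.0849 and 0.104), at log2 fold changes from 0.92 to 0.95. Its knockdown call was lost with any 1 wild-type or knockout-control array left out (highest limma adjusted p = 0.248, at 0.63). The 2 probe sets differ in the size of the change and not in its direction.

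Adding the PGC-1beta siRNA gave lower Cebpd values that did not pass over all probe sets. In knockdown against knockout-control the log2 fold change was -0.53 ± 0.21 for 1423233_at (95% interval -1.01 to -0.05, limma adjusted p = 0.331) and -0.29 ± 0.15 for 1456605_at (-0.62 to 0.05, limma adjusted p = 0.459). Leaving out 1 array at a time, the first ranged from -0.77 to -0.29. Lower values on knockdown array 2 than on array 1 were general: they held for all 14 member probe sets with both values and for 75.4% of all tested probe sets, with a median log2 difference of -0.32 and -0.22.

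The Cebpd gene is known to respond to the glucocorticoid receptor, and 11 glucocorticoid-responsive genes were read from their brightest probe sets. This list, like the later ones, was chosen with earlier results of these data known. Its counts describe these arrays and are no test of a shared pattern. Between knockout-control and wild type 7 rose, 0 fell and 4 did not pass (list median 1.16), where 2.48% of all genes were called higher and 3.38% lower on the same rule, at a median of 0.00. Fkbp5, which encodes a chaperone partner of that receptor, had 6023 and 5618 in knockout-control and 794.4 and 850.3 in wild type, a 6.85-fold rise (2.78 ± 0.16, limma adjusted p = 0.000124). Zbtb16, a zinc finger repressor induced by glucocorticoids, had 2556 and 2685 in knockout-control and 480.1 and 520.5 in wild type (4.99-fold, limma adjusted p = 0.00011). Tsc22d3, which encodes the glucocorticoid-induced leucine zipper, rose 2.98-fold, the kinase gene Sgk1 3.06-fold, the Krüppel-like factor genes Klf9 2.48-fold and Klf15 2.18-fold, and the lipid phosphatase gene Lpin1 2.23-fold. The brightest Klf9 probe set has a value on 1 knockout-control array only. Sgk1 had 138.9 and 87.6 in wild type, under the filter's 163.6, and was tested only through its higher knockout values. Klf9 and Tsc22d3 each had 1 further probe set of opposite sign that did not pass (-0.25 and -0.41). Dusp1, Mt2, Per1 and Lcn2 had log2 fold changes of -0.54, -0.07, 0.33 and 0.70 and did not pass. The Mt2 values, 12972.5 to 14881.6, lay near the array maxima. The list count was 4 to 7 with each array left out, and Fkbp5, Zbtb16 and Tsc22d3 were called in every such fit.

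In knockdown against wild type 9 of these 11 genes rose and 0 fell (list median 1.40), where 3.74% of all genes were called higher and 5.6% lower, and the count was 5 to 9 with each array left out. The brightest probe sets of Fkbp5 and Klf9 each have a value on knockdown array 1 only (5417 and 7368), so their knockdown calls rest on that array. Per1, a clock gene with a glucocorticoid response element, had 1170 and 1041 in knockdown, 439.5 and 585.9 in knockout-control and 404 and 391.1 in wild type. It was the 1 gene of the list called between knockdown and knockout-control (2.10-fold, limma adjusted p = 0.045), where 0.205% of all genes were called higher, and that call was lost in 4 of the 6 fits with an array left out (highest limma adjusted p = 0.289). The receptor itself, Nr3c1, had 798 and 596.6 in knockdown, 865.6 and 1043 in knockout-control and 1508 and 1712 in wild type. It fell 2.27-fold in knockdown against wild type (limma adjusted p = 0.00672), a call lost in 1 of the 6 fits with an array left out (0.0641), and its knockout-control value did not pass (-0.74 ± 0.19, limma adjusted p = 0.0533). The labels do not state the hormones in the medium, and their part in these levels was not tested.

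The probe sets most like Cebpd 1423233_at over the 6 arrays, among 1020 with at least 0.5 times its log2 range, were a probe set of Zbtb16 (Pearson r = 0.999), one of the interferon gamma receptor gene Ifngr1 (r = 0.999) and one of Ranbp9 (r = 0.997). Ifngr1 had 2685 and 1986 in knockdown, 2616 and 3301 in knockout-control and 748.7 and 800.8 in wild type. These correlations describe 6 arrays in 3 groups and include the step between wild-type and knockout cells.

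Cebpa encodes C/EBPα, the factor that keeps mature fat cells differentiated and insulin-sensitive, and Cebpg encodes a partner of all C/EBP proteins. They lie 62726 bases apart on chromosome 7 (Cebpg at 35046422 to 35056566, Cebpa at 35119293 to 35121928, GRCm38). Their promoters are shown because the 2 genes neighbour each other. Whether they differ in their change was not tested. Each of these 2 RefSeq windows (GRCm38.p6) runs from 250 bases before the gene's start to 50 after it. It is written 5′ to 3′ on the gene's strand, with CCAAT boxes (CCAAT, here on the opposite strand as ATTGG) and TATA boxes (TATAAA) in capitals.
Cebpg, chr7:35056517-35056816, minus strand: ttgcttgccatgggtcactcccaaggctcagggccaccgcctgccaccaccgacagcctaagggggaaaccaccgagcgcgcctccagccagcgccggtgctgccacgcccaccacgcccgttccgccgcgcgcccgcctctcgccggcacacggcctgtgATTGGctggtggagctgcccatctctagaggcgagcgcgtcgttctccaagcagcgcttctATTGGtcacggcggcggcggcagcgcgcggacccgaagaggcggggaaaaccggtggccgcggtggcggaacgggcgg
Cebpa, chr7:35119043-35119342, plus strand: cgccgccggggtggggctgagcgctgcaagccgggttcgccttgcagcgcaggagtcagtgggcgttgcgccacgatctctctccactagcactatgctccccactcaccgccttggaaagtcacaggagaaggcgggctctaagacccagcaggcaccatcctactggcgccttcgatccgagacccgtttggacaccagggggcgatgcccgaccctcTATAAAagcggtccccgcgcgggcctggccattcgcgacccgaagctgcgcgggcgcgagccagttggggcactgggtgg

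The Cebpg window held 2 CCAAT boxes and no TATA box, and the Cebpa window held 1 TATA box and no CCAAT box. Sequences were matched for 6 of the 7 genes, in 9 windows, and Cebpd was not among them. Both strands of each window were searched for CCAAT and TATAAA and for the motifs of C/EBP (TTGCNNAA), STAT (TTCNNNGAA), EBF (its palindrome with 2 free central bases) and the glucocorticoid receptor (ACANNNTGT). The C/EBP, STAT and EBF motifs were in 0 of the 9 windows, and in 10.8%, 8.3% and 0.904% of all 32851 promoter windows. The glucocorticoid receptor motif was in 1, a Stat5b window, and in 6.85% of all. CCAAT was in 1 of 9 and in 37.4% of all, and TATAAA in 2 of 9, those of Cebpa and Cebpb, and in 13.6% of all. A match is only a string of letters in a short window.

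Cebpa had 6600 and 5841 in knockdown, 6185 and 5765 in knockout-control and 6351 and 6076 in wild type on its single probe set. The 3 groups overlapped. Its log2 fold changes were -0.06 ± 0.15 in knockout-control against wild type (95% interval -0.40 to 0.29), 0.06 ± 0.15 in knockdown against knockout-control (-0.29 to 0.40) and -0.00 ± 0.15 in knockdown against wild type (-0.35 to 0.34).

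Cebpg had 1845 and 1362 in knockdown, 1663 and 2006 in knockout-control and 1045 and 1197 in wild type on probe set 1425262_at. On 1451639_at it had 1793 and 1328 in knockdown, 1408 and 1664 in knockout-control and 1031 and 1131 in wild type. On both probe sets all 4 knockout arrays were above both wild-type arrays, and knockdown and knockout-control overlapped. Against wild type the log2 fold changes in knockout-control were 0.69 ± 0.19 and 0.49 ± 0.19 (limma adjusted p = 0.0708 and 0.173) and in knockdown 0.49 ± 0.19 and 0.50 ± 0.19 (0.15 and 0.13), and none passed. Without either knockdown array 1425262_at passed between knockout-control and wild type (limma adjusted p = 0.0187), and without knockdown array 2 both passed between knockdown and wild type (0.0391 and 0.032, at 0.71 and 0.72). After quantile normalization all 4 of these values passed (0.0120 and 0.0259 in knockout-control, 0.0188 and 0.0149 in knockdown). The dim probe set 1425261_at had 130.4 and 99.18 in knockdown, 134.1 and 188.1 in knockout-control and 106.1 and 122.8 in wild type and was not tested. The probe sets most like Cebpg 1425262_at were those of Gcsam, the lipid phosphatase gene Plpp6 and Sh3bp4 (r = 0.999, 0.997 and 0.995 over 6 arrays).

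Cebpb (chromosome 2, 167688915 to 167690432) encodes C/EBPβ, which acts at the start of adipogenesis and also in the cAMP response of brown fat. Its probe set 1418901_at had 6273 and 5043 in knockdown, 6144 and 6839 in knockout-control and 5337 and 5425 in wild type. Both knockout-control arrays were above wild type, at a log2 fold change of 0.27 ± 0.17 that did not pass (limma adjusted p = 0.413). The other probe set, 1427844_a_at, had 3445 and 2463 in knockdown, 2995 and 2885 in knockout-control and 3291 and 2520 in wild type, and all 3 groups overlapped (log2 fold changes from -0.01 to 0.03). The probe sets most like Cebpa and Cebpb were those of Tnks, Entpd7 and Hif1a and of Ggps1, Xist (a probe set that did not separate the lines) and Psme4 (r from 0.981 to 0.997), but both members ranged over at most 0.44 log2 units.

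**Figure D2:**
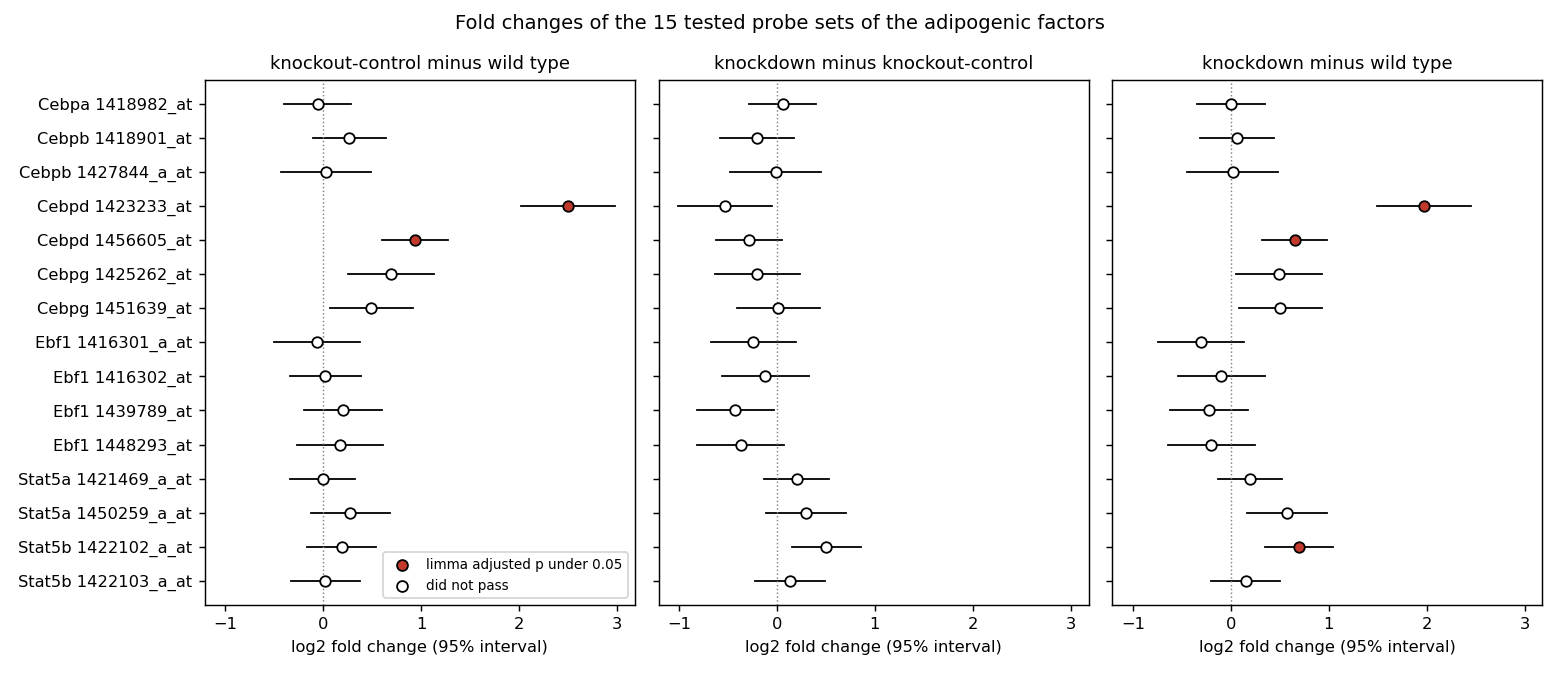
Log2 fold changes with 95% intervals from limma of the 15 tested probe sets in the 3 comparisons; red points passed the test over all probe sets. Both probe sets of Cebpd pass against wild type in both kinds of knockout cell. The dimmer one was tested only through its higher knockout values, so its passes give no separate support. Stat5b 1422102_a_at passes in knockdown against wild type, and no probe set passes between knockdown and knockout-control. The passes of the dimmer Cebpd probe set and of Stat5b were lost with single arrays left out.

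Genes that regulate or partner the C/EBP factors were counted next. Of 13 listed, 10 were above the filter. Between knockout-control and wild type 0 rose, 1 fell and 9 did not pass (median 0.11), where 2.48% of all genes were called higher and 3.38% lower. Gsk3b, a kinase that phosphorylates C/EBPα and C/EBPβ, had 1782 and 1585 in knockdown, 1562 and 1761 in knockout-control and 2905 and 3140 in wild type. It fell 1.81-fold in knockout-control against wild type (limma adjusted p = 0.0155), and all 3 of its tested probe sets were called, but the call of the brightest was lost in 4 of the 6 fits with an array left out (highest limma adjusted p = 0.185). In knockdown against wild type, where 3.74% of all genes were called higher and 5.6% lower, 1 rose and 2 fell, namely Stat3 (1.54-fold higher, limma adjusted p = 0.0357, lost in 4 of the 6 fits with an array left out), Nr3c1 and Gsk3b (1.78-fold lower, limma adjusted p = 0.0127, lost in 2 of the 6 fits). Of the 3 tested probe sets of Stat3, 1 was called in knockdown against wild type. Between knockdown and knockout-control 0 of 10 genes passed. Ddit3, whose product CHOP blocks C/EBP binding, had 4998 and 3942 in knockdown, 2479 and 3601 in knockout-control and 2568 and 2712 in wild type and did not pass (0.74 ± 0.21 in knockdown against wild type, limma adjusted p = 0.0568).

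Adipocyte genes known to take input from C/EBP factors or PPARγ were counted in the same way. Of 17 listed, 14 were above the filter; between knockout-control and wild type 3 rose, 1 fell and 10 did not pass (median 0.07), where 2.48% of all genes were called higher and 3.38% lower. Retn, the resistin gene, had 6114 and 5793 in knockdown, 8807 and 7001 in knockout-control and 2907 and 2642 in wild type, a 2.81-fold rise in knockout-control (limma adjusted p = 0.00149). Cidec, a lipid droplet protein gene, rose 1.78-fold and Insr, the insulin receptor gene, 1.68-fold, while Agpat2, an enzyme of triglyceride synthesis, fell 1.75-fold (limma adjusted p = 0.0398, 0.0371 and 0.0365). The calls of Cidec, Insr and Agpat2 were each lost in 4 of the 6 fits with an array left out, and 2 further probe sets of Insr stood at -0.00 and 0.01. In knockdown against wild type 1 of 14 rose, Retn (2.13-fold, limma adjusted p = 0.00561, lost in 1 of the 6 fits with an array left out), and 0 fell, where 3.74% of all genes were called higher and 5.6% lower. Between knockdown and knockout-control 0 of 14 passed, where 0.205% of all genes were called higher and 0.44% lower. Pparg had 4864 and 4239 in knockdown, 5310 and 5263 in knockout-control and 4029 and 4169 in wild type and did not pass in any comparison. Lep, the leptin gene, fell under the filter on its mean and was not tested, with 14.3 and 64.4 in knockdown, 47.4 on the 1 knockout-control array with a value and 813.1 and 892.4 in wild type.

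Ebf1 (chromosome 11, 44618100 to 45008096) encodes an early B-cell factor needed for white and brown fat cell differentiation in mice. Its brightest probe set, 1416302_at, had 1939 on knockdown array 1 and an empty cell on array 2, 2000 and 2222 in knockout-control and 2086 and 2071 in wild type, so its fit rests on 1 knockdown array. The 3 other tested probe sets were lowest on knockdown array 2. On 1448293_at the values were 1444 and 1051 in knockdown, 1433 and 1799 in knockout-control and 1469 and 1375 in wild type. On 1416301_a_at they were 925.9 and 733.8 in knockdown, 850.9 and 1132 in knockout-control and 968.2 and 1090 in wild type. On 1439789_at they were 443.1 and 361.1 in knockdown, 501.8 and 599.5 in knockout-control and 511.5 and 436.9 in wild type. None of the 12 values passed: they lay from -0.06 to 0.20 in knockout-control against wild type, from -0.43 to -0.12 in knockdown against knockout-control and from -0.31 to -0.10 in knockdown against wild type. The intervals of the 4 probe sets in knockdown against wild type reach from -0.74 to 0.35. The dim probe set 1457441_at had 116.7 and 69.29 in knockdown, 106.8 and 213.2 in knockout-control and 176 and 209.7 in wild type. The probe sets most like Ebf1 1448293_at were those of Pias3, Lgi4 and Ppp1cb (r from 0.99 to 0.993).

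Among the other EBF genes and their zinc finger partners 4 of 6 were above the filter. Ebf2, a regulator of brown fat identity, had 865.1 and 784.8 in knockdown, 1349 and 1537 in knockout-control and 2557 and 2345 in wild type, and the 3 groups did not overlap. It fell 1.69-fold in knockout-control (limma adjusted p = 0.0252, lost in 4 of the 6 fits with an array left out) and 2.90-fold in knockdown (limma adjusted p = 0.000859), each against wild type, while knockdown against knockout-control missed the threshold (-0.78 ± 0.16, limma adjusted p = 0.0693). Prdm16, a brown fat coregulator, fell 1.52-fold on its brightest probe set in knockdown against wild type (limma adjusted p = 0.0387, lost in 5 of the 6 fits with an array left out), and all 3 of its tested probe sets were called there. In knockout-control against wild type its brightest probe set did not pass (-0.22), while the other 2 tested were called. The mean of its probe sets was -0.81 in knockout-control (limma adjusted p = 0.0146) and -1.39 in knockdown (limma adjusted p = 0.00117). Ebf3 and Zfp423 did not pass in any comparison on their brightest probe sets, although 2 further probe sets of Ebf3 were called in knockdown against wild type. Whether Ebf1 and Ebf2 differ in their change was not tested. The list counts were 0 higher and 1 lower of 4 in knockout-control against wild type, where 3.38% of all genes were called lower. They were 0 of 4 between knockdown and knockout-control (0.44% of all called lower) and 0 higher and 2 lower in knockdown against wild type (5.6% of all called lower).

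**Figure D3:**
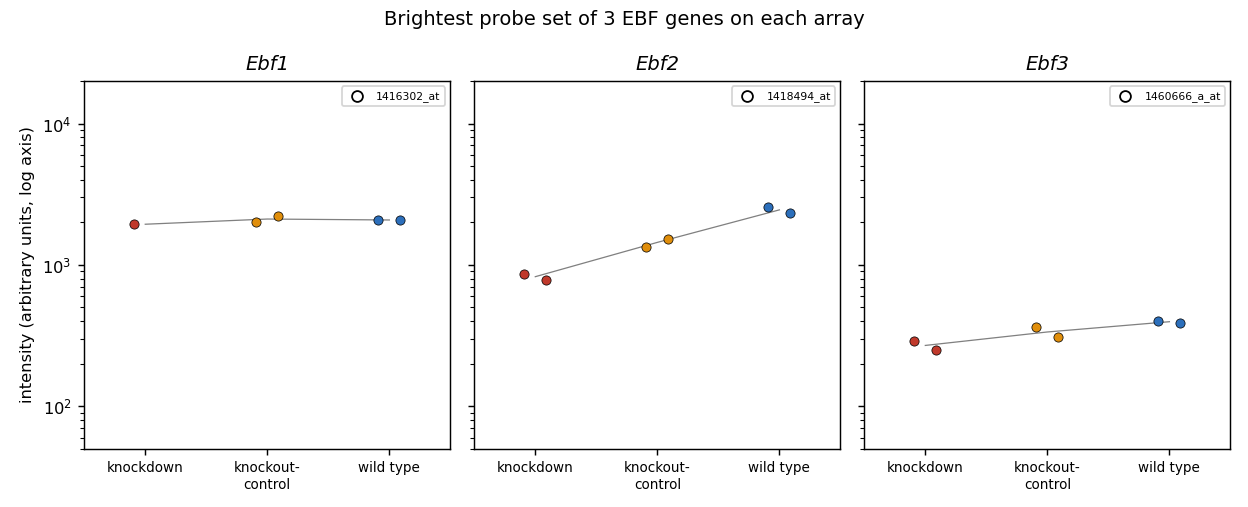
Intensity (log axis) of the brightest probe set of Ebf1, Ebf2 and Ebf3 on each array, by group; points are arrays and grey lines join group means. Ebf1 lies between 1939 and 2222 on the 5 arrays with a value, and Ebf2 is at 784.8 to 865.1 in knockdown, 1349 to 1537 in knockout-control and 2345 to 2557 in wild type. The Ebf1 value missing is that of knockdown array 2, on which the other tested Ebf1 probe sets were lowest.

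Stat5a and Stat5b encode 2 closely related proteins, and the genes lie next to each other on chromosome 11 (Stat5b 100780731 to 100859004, Stat5a 100859351 to 100885169, GRCm38). Stat5b runs on the minus strand and Stat5a on the plus strand, so the 346 bases between them separate their 5′ ends. The windows printed here lie inside the annotated genes and not in that gap. One RefSeq promoter window of each gene is shown because the windows share a stretch of 65 bases, of which 58 are identical. Capitals mark that stretch, found as the best ungapped match among the windows of the 2 genes.
Stat5a, chr11:100860234-100860533, plus strand: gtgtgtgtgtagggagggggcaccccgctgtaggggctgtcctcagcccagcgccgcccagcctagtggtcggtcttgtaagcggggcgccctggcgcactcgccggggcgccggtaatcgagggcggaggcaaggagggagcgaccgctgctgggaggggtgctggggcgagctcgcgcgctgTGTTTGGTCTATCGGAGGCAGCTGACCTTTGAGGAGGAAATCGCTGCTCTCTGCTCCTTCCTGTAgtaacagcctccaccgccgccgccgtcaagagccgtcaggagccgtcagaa
Stat5b, chr11:100822521-100822820, minus strand: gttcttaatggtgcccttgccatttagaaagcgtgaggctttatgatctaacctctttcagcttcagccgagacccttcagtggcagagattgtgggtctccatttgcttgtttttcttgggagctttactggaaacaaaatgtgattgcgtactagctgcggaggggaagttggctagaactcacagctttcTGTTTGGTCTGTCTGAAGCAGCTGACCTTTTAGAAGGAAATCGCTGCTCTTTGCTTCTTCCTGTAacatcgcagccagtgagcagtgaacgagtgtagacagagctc
Probe sequences were not used here, and whether probes of one gene also bind RNA of the other was not tested. The mean of each tested probe set of both genes was highest in knockdown, but only Stat5b 1422102_a_at was called, against wild type. Whether the shared stretch bears on these levels, and how often other windows share such a stretch, was not tested.

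Stat5b had 704.3 and 631.3 in knockdown, 454.1 and 467.2 in knockout-control and 428.8 and 373.4 in wild type on probe set 1422102_a_at. Both knockdown arrays were above the other 4, and both knockout-control arrays were above wild type. It rose 1.62-fold in knockdown against wild type (0.69 ± 0.15, limma adjusted p = 0.0253), a call lost without wild-type array 1 or 2 (limma adjusted p = 0.133 and 0.284, at 0.79 and 0.60). The steps did not pass on their own, at 0.50 ± 0.15 in knockdown against knockout-control (95% interval 0.15 to 0.85, limma adjusted p = 0.202) and 0.19 ± 0.15 in knockout-control against wild type (limma adjusted p = 0.552). The brighter Stat5b probe set, 1422103_a_at, had 1241 and 1064 in knockdown, 994.2 and 1099 in knockout-control and 1041 and 1020 in wild type, and its knockdown value against wild type did not pass (0.15 ± 0.16, limma adjusted p = 0.598). The 2 probe sets have the same sign in all 3 comparisons, and 1 was called.

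Stat5a had 1359 and 1064 in knockdown, 993.1 and 955.4 in knockout-control and 883.6 and 719.9 in wild type on 1450259_a_at. On 1421469_a_at it had 1537 and 1435 in knockdown, 1256 and 1318 in knockout-control and 1297 and 1289 in wild type. Both knockdown arrays were above the other 4 arrays on each probe set. The first did not pass in knockdown against wild type (0.57 ± 0.18, limma adjusted p = 0.0796), although it did without knockdown array 2 (0.0295, at 0.75), after quantile normalization (0.0239) and with arrays scaled to the same median (0.0397). The second stood at 0.20 ± 0.15 (limma adjusted p = 0.455). The probe sets most like Stat5a 1421469_a_at were those of Rbpms, Adi1 and Gpd1l, and most like Stat5b 1422103_a_at those of Exosc1, Alg5 and Nxn (r from 0.995 to 0.999).

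Genes around STAT5 were read in the same way, from receptor to target. Of 16 genes listed for growth hormone, prolactin, JAK and STAT5, 15 were above the filter, and between knockout-control and wild type 1 rose, 3 fell and 11 did not pass (median -0.09), where 2.48% of all genes were called higher and 3.38% lower. The receptor gene Ghr had 1308 and 1127 in knockdown, 1515 and 1592 in knockout-control and 2798 and 2614 in wild type. It fell 1.73-fold in knockout-control (limma adjusted p = 0.0202, lost in 4 of the 6 fits with an array left out) and 2.20-fold in knockdown (limma adjusted p = 0.00349), each against wild type. Jak2, the kinase that phosphorylates STAT5, had a log2 fold change of 0.48 in knockout-control and 0.58 in knockdown and did not pass on its brightest probe set. Of the 2 tested probe sets of Jak2, 1 was called in knockdown against wild type.

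Genes known as STAT5 targets did not move as one, and no separate list of them was counted. Aox1 stood at 0.33 in knockout-control and 0.02 in knockdown against wild type, Bcl6 at 0.15 and 0.07, Socs1 at -0.07 and -0.06 and Socs3 at -0.48 and -0.40, and none of these passed. Igf1, insulin-like growth factor 1, had 383.8 and 295.8 in knockdown, 237.6 and 275 in knockout-control and 1121 and 1163 in wild type, and all 4 of its tested probe sets fell. Its brightest fell 4.08-fold in knockout-control (-2.03 ± 0.17, limma adjusted p = 0.000421) and 3.18-fold in knockdown (-1.67 ± 0.17, limma adjusted p = 0.000909). Cish, a feedback inhibitor induced by STAT5, had 535.9 and 529.1 in knockdown, 742.1 and 837.6 in knockout-control and 1577 and 1709 in wild type, a fall of 2.04-fold in knockout-control (limma adjusted p = 0.00561) and 2.96-fold in knockdown (limma adjusted p = 0.000705). The knockout-control call of Cish was lost in 3 of the 6 fits with an array left out (highest limma adjusted p = 0.0861). Ptpn11, which encodes the phosphatase SHP2, rose 1.95-fold in knockout-control and 1.62-fold in knockdown (limma adjusted p = 0.0101 and 0.0272), a call lost in 4 of the 6 fits with an array left out in each comparison. Of the 3 tested probe sets of Ptpn11, 1 was called in each of these comparisons. In knockdown against wild type 1 of the 15 rose and 4 fell, where 3.74% of all genes were called higher and 5.6% lower. The fourth, Socs2, had probe sets that disagreed: the brightest fell (-0.73 ± 0.19, limma adjusted p = 0.0439), another rose (0.97 ± 0.18, limma adjusted p = 0.0114), the third stood at 0.06 and did not pass, and the mean of all 3 was 0.10. The call of the brightest was lost in 5 of the 6 fits with an array left out. Between knockdown and knockout-control 0 of 15 passed in limma.

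Of the other 5 STAT genes 3 were above the filter, and Stat3 was the 1 called on its brightest probe set. That call was in knockdown against wild type, on 1 of its 3 tested probe sets, where 3.74% of all genes were called higher. Stat6 stood at 0.36 in knockout-control and 0.28 in knockdown against wild type and Stat2 at 0.14 and 0.46, and neither passed on its brightest probe set. Of the 2 tested probe sets of Stat2, 1 was called in knockdown against wild type.

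**Figure D4:**
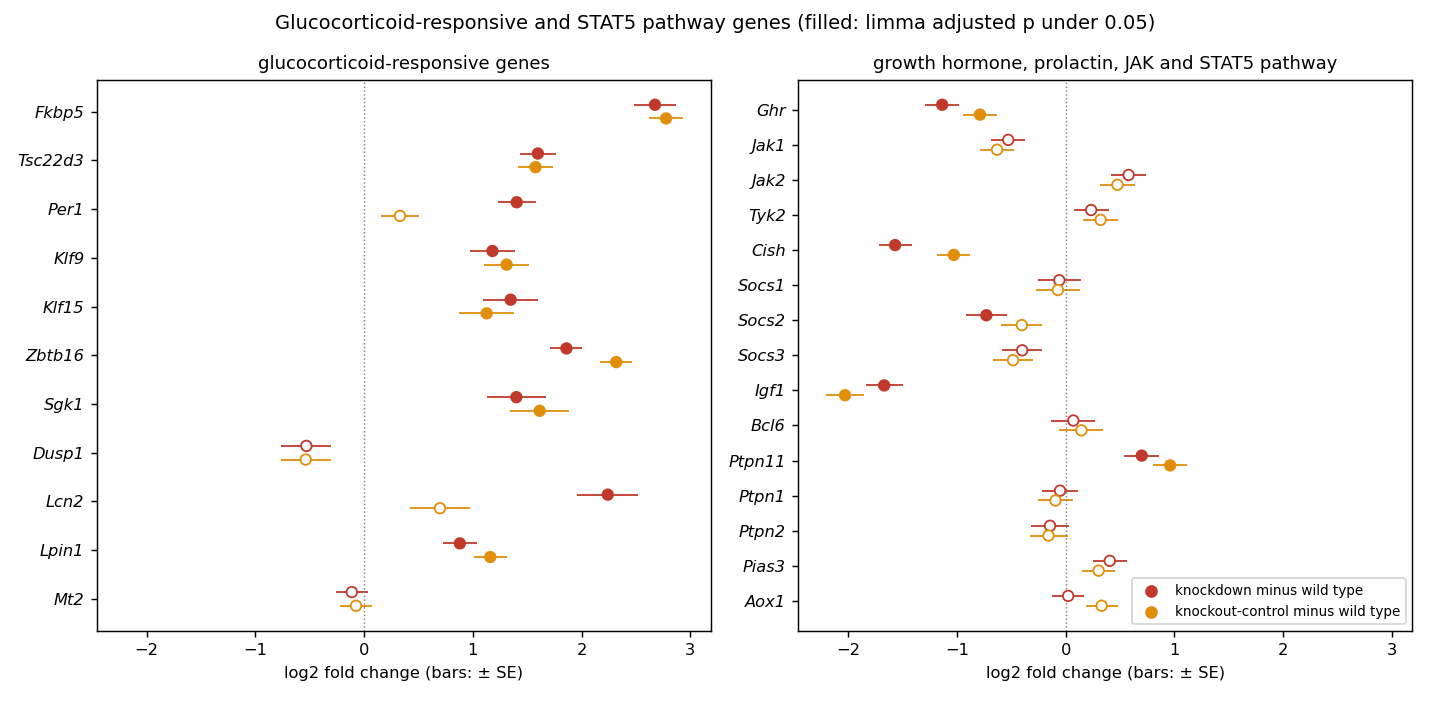
Log2 fold changes against wild type (points, with bars of ± SE) of 11 glucocorticoid-responsive genes and 15 genes of the STAT5 pathway in knockdown (red) and knockout-control (orange), which share the wild-type arrays; filled points passed limma over all probe sets. The glucocorticoid-responsive genes were called 7 times higher in knockout-control and 9 times in knockdown, and Igf1, Cish and Ghr lie below 0 in both. Both lists were chosen with earlier results of these data known.

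Markers of other cells were set beside these results, since C/EBP and STAT factors are also used by macrophages and EBF1 by B lymphocytes. Summed over 6 of 6 macrophage markers the intensities were 3061 and 3530 in knockdown, 3766 and 3255 in knockout-control and 3373 and 3463 in wild type, and 0 of the 5 above the filter passed in limma in any comparison. Of 4 B lymphocyte markers 3 had a probe set, with sums of 974.1 and 996.4 in knockdown, 609.6 and 1003 in knockout-control and 867.2 and 934.1 in wild type, and Cd79a and Cd79b were under the filter. Preadipocyte and fibroblast markers (6 of 7) summed to 4273 and 3770 in knockdown, 2610 and 3120 in knockout-control and 4244 and 3635 in wild type, a sum of genes that moved in opposite directions. Dlk1 rose 3.66-fold and Pdgfra 1.87-fold in knockdown against wild type, while Col1a1 fell 1.65-fold (limma adjusted p = 0.000784, 0.0117 and 0.0276). Dlk1 also rose 3.53-fold in knockdown against knockout-control (limma adjusted p = 0.00838) and did not pass in knockout-control against wild type (0.05). Col1a1 fell 1.69-fold in knockout-control against wild type (limma adjusted p = 0.0304) and did not pass between knockdown and knockout-control (0.04). Pdgfra passed in neither (0.39 and 0.52). Smooth muscle markers (3 of 3) summed to 2234 and 2329 in knockdown, 2743 and 2754 in knockout-control and 4493 and 4050 in wild type. Of these, 2 of the 3 smooth muscle markers fell and 0 rose in knockout-control against wild type, where 3.38% of all genes were called lower. In knockdown against wild type 2 of the 3 also fell and 0 rose, where 5.6% of all genes were called lower. No marker cell with a number was at 0. The part of the brown, preadipocyte and smooth muscle marker differences in the results was not tested.

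Over the 15 probe sets the arrays of 2 groups did not overlap for 7 of 15 between knockout-control and wild type (7 higher, 0 lower), where 58.3% of all probe sets did not overlap. Between knockdown and knockout-control 3 of the 14 with all values were higher and 3 lower without overlap, where 37.4% of all did not overlap. Between knockdown and wild type 8 of 14 were higher and 1 lower, where 54.6% of all did not overlap. These shares are near those of the whole array.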

How the data were processed

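Biotin-labelled total RNA was measured on 6 one-colour oligonucleotide arrays, per the labels. The authors deposited 1 linear intensity per probe set and array. The labels name no summary software, background correction or scaling. Array medians lay between 220.9 and 242.7, so values were not rescaled. Cells holding the word null (5285) or empty (870, 1 of them in a member) were missing.

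Symbols came from the platform annotation, updated by Entrez identifier in a RefSeq table of GRCm38: 34945 probe sets had 1 symbol (34741 matched), 932 several and 9160 none here. limma 3.58.1 (R 4.3.3) fitted group means to log2(intensity + 32) on all 6 arrays, with 3 residual and 5.82 prior degrees of freedom, over probe sets with 1 symbol above the 40th percentile. Adjusted p-values are limma's with Benjamini-Hochberg over all tested probe sets. Precision is limited by having 2 arrays in a group, and p-values measure the spread between these arrays.

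The members and lists were chosen with earlier results of these data known. Named genes were every member probe set, called genes of 6 pathway lists (brightest probe set per gene), cell markers, and the 3 most like each member. Values named for list genes that did not pass were chosen after they were seen. The procedure was tested on simulated data. Alternatives covered the pseudocount, filter, scaling, eBayes settings, probe set choice, arrays fitted, a replicate block, null cells and leaving out each array.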

Additional observations from a re-analysis of the deposited data

How the results depend on the processing

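Of 802 values of member probe sets under 19 alternatives, 775 kept their side of the threshold, 15 lost a call, 12 gained one and 0 called values changed sign. The number of the 7 genes called between knockout-control and wild type, 1 here, was 2 after quantile normalization and 2 with only the arrays compared, and lay between 1 and 2 with an array left out. Between knockdown and knockout-control it was 0 under every alternative run. Between knockdown and wild type, 2 here, it was 1 with no filter on dim probe sets, with 1 probe set per gene, with probe sets averaged by gene and with a replicate block, 4 after quantile normalization, and between 1 and 4 with an array left out. The call of Cebpd 1423233_at against wild type stayed in knockout-control under all 19 (log2 fold change 2.28 to 2.73, and 1.72 for the average of both Cebpd probe sets).

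Same-numbered arrays did not deviate together (r = -0.496, -0.113 and 0.188 for the 3 pairs of groups). The first value, of knockdown and knockout-control, is negative, so their deviations went together with the numbers crossed. Across probe sets these arrays correlated at 0.9664 and 0.9545 when differently numbered, and at 0.9459 and 0.9457 when same-numbered. A block by array number does not describe this crossed pattern. The main fit of group means did not model it, and its source was not tested. With the replicate block Cebpd 1456605_at and Stat5b 1422102_a_at lost their knockdown calls (limma adjusted p = 0.0723 and 0.0635), and the whole array had 757, 17 and 1296 calls in the 3 comparisons, against 1435, 142 and 2256. Over all alternatives the whole-array counts ranged from 394 to 3143 (knockout-control against wild type), from 6 to 897 (knockdown against knockout-control) and from 548 to 4109 (knockdown against wild type, 2256 here). For Socs2 in knockdown against wild type the mean of its 3 probe sets reversed the sign (0.10). Where an array left out leaves a group with 1 array, that array is assumed to vary like the others. Why calls moved was not tested.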
